A study of Sus scrofa with 6 samples.

Results

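Matrix Gla protein (MGP) and the genes that make, move or bind mineral were followed in primary cells of the pig external ear. Of 10 genes listed, 9 were found among the 19670 gene models of the series. MGP was taken as the model ENSSSCG00000000606, whose deposited protein match is matrix Gla protein precursor of the pig. The symbol of the model led to 6 others, and the deposited protein name led to ALPL and PHOSPHO1, which have no symbol. SLC20A1 was matched by neither route and is not analysed here. MGP was chosen by its reads in these same libraries, where its difference between GW0742 and DMSO was already known, so that difference is a description and carries no test.

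The cells were freed by enzymes from the auricular (ear) cartilage of 1 pig of 4 months, a Duroc x (Landrace x Large White) hybrid that carries wild-type PPARD. Cells treated for 24 h with GW0742, a compound that switches on the nuclear receptor PPARD, gave 3 libraries, and cells given DMSO alone for 24 h gave 3 more. The question behind the series is the role of PPARD in ear cartilage growth. Since 1 animal gave all cells, and separate cultures are not stated, each p-value reflects library-to-library spread alone, part of which may be technical. Libraries held between 13133894 and 16913742 estimated reads, and 14146 models (71.9%) were deep enough to test. As a check of the treatment, the PPAR target ANGPTL4 averaged 187 ± 12.2 CPM (counts scaled to library size) with GW0742 and 21.3 ± 5.24 CPM with DMSO. PDK4, also a PPAR target, averaged 4.72 ± 0.77 CPM with GW0742 and 0.28 ± 0.08 CPM with DMSO. PPARD itself averaged 55.7 ± 2.51 CPM with GW0742 and 51.5 ± 3.81 CPM with DMSO (SD, n = 3 in each group for all 3 genes).

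MGP is a small secreted protein of cartilage and of vessel walls that keeps calcium phosphate from settling in soft tissue. It works only after the carboxylase GGCX has turned some of its glutamates into gamma-carboxyglutamate (Gla), a step that uses up reduced vitamin K. Mice without Mgp calcify their arteries and growth plates. Whether mineral forms in a matrix also depends on inorganic pyrophosphate, which blocks crystal growth, and on phosphate, which feeds it. ENPP1 and ANKH supply pyrophosphate outside the cell, ALPL cleaves it, PHOSPHO1 releases phosphate inside matrix vesicles, and SLC20A2 carries phosphate into the cell. Osteopontin (SPP1) and bone sialoprotein (IBSP) are acidic proteins that bind mineral. Elastic cartilage of the ear normally stays free of mineral.

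MGP stood about 2-fold higher with GW0742. It had 582, 857 and 666 estimated reads in GW0742 replicates 1, 2 and 3, against 336, 337 and 384 in DMSO replicates 1, 2 and 3. Per length, that was 63.2, 78.4 and 61.9 RPKM (reads scaled to model length and library size, as deposited) with GW0742 and 28.5, 35.2 and 32.5 RPKM with DMSO. Every GW0742 library lay above every DMSO library, and the lowest GW0742 value was far above the highest DMSO value. GW0742 replicate 2 was the highest of its group and DMSO replicate 1 the lowest of all. The means were 67.8 ± 9.19 RPKM with GW0742 and 32.1 ± 3.36 RPKM with DMSO (SD, n = 3 each). On the count scale they were 47.2 ± 5.45 CPM with GW0742 and 22.8 ± 2.69 CPM with DMSO, a log2 fold change of 1.06 ± 0.12 (SE, edgeR) or a fold of 2.08.

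The model is short, at 663 bases, and its transcript was among the more abundant ones in both groups. Between 93.5% and 95.0% of all models lay below it in RPKM in the GW0742 libraries, and between 86.3% and 89.0% in the DMSO libraries. In edgeR 37 of 14146 tested models (0.262%) passed an adjusted p of 0.05, 26 of them higher (0.184%) and 11 lower (0.0778%). These shares are the background for the genes below, and nothing is read from them for MGP. Over all tested models, 168 had a larger log2 fold change than MGP. Leaving out each library in turn gave MGP a log2 fold change between 0.96 and 1.13.

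**Figure D1:**
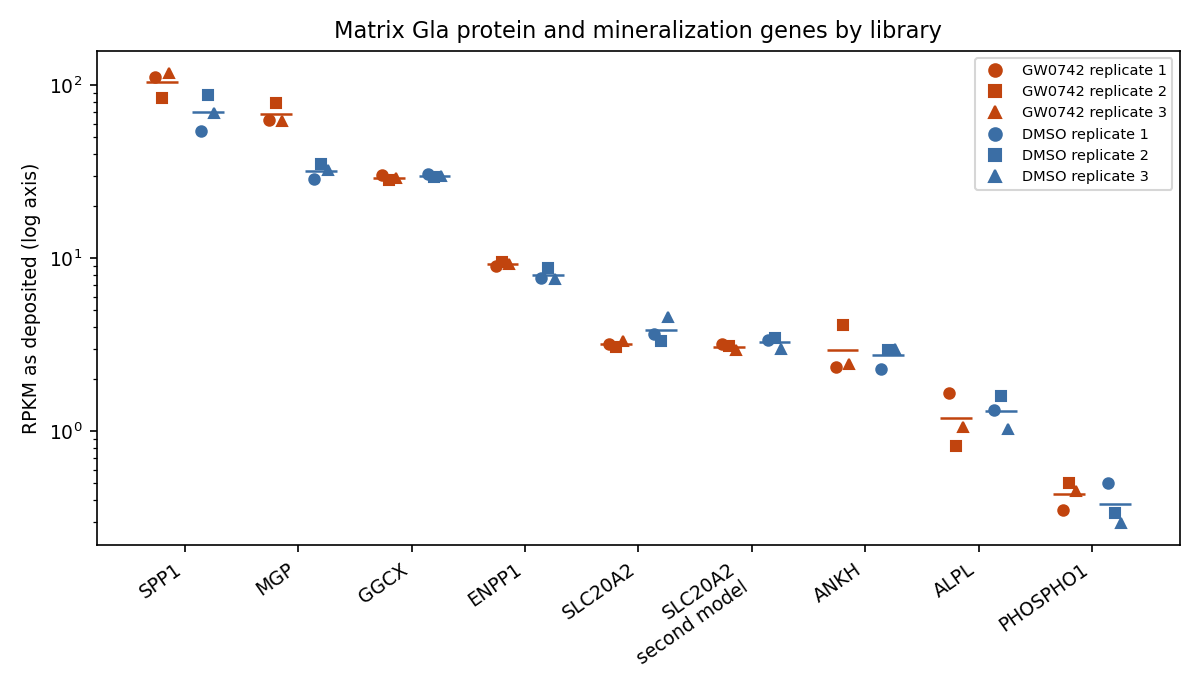
RPKM of 8 members and of a second SLC20A2 model in each library, on a log axis, with GW0742 left of DMSO for each gene and a line at each group mean (n = 3). MGP lies between 61.9 and 78.4 RPKM with GW0742 and between 28.5 and 35.2 RPKM with DMSO, while GGCX lies near 30 in both groups. IBSP, listed at 0 in 4 libraries, is not drawn.

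GGCX, the carboxylase that MGP depends on, stayed within a narrow band. It stood at 30.1, 28.5 and 29.2 RPKM in GW0742 replicates 1, 2 and 3, and at 30.5, 29.4 and 29.9 RPKM in DMSO replicates 1, 2 and 3. The groups overlapped. On the count scale the means were 178 ± 7.93 CPM with GW0742 and 185 ± 0.727 CPM with DMSO (log2 -0.06 ± 0.06, edgeR adjusted p = 0.654). VKORC1, the reductase that recycles vitamin K for the carboxylase, was at 122, 121 and 125 RPKM with GW0742 and at 125, 115 and 127 RPKM with DMSO (log2 -0.02 ± 0.06, edgeR adjusted p = 0.894), and its sign turned without GW0742 replicate 2 or DMSO replicate 3. VKORC1L1, a related reductase, had a log2 fold change of 0.08 ± 0.09 (edgeR adjusted p = 0.717). None of these 3 genes passed, and their SEs were below 0.1 on the log2 scale, smaller than that of MGP. In the DMSO libraries MGP and GGCX overlapped in RPKM, with MGP at 28.5 to 35.2 and GGCX at 29.4 to 30.5. In the GW0742 libraries they did not, with MGP at 61.9 to 78.4 and GGCX at 28.5 to 30.1. The difference between the 2 genes was not tested.

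The other 6 tested members did not pass in edgeR, where 0 were called and 1 (SPP1) had an unadjusted p under 0.05. DESeq2 and limma also called 0 of the 6. Among these 6 the groups did not overlap in ENPP1, where GW0742 was higher, and in SLC20A2, where it was lower. Over all tested models 23.4% had groups that did not overlap in CPM.

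SPP1, which encodes osteopontin, was the most abundant member in both groups. It stood at 111, 84.2 and 117 RPKM in GW0742 replicates 1, 2 and 3, and at 54.6, 87.3 and 68.7 RPKM in DMSO replicates 1, 2 and 3. The groups overlapped, since GW0742 replicate 2 lay below DMSO replicate 2. Its means were 159 ± 29.4 CPM with GW0742 and 109 ± 27.0 CPM with DMSO (log2 0.55 ± 0.19, edgeR adjusted p = 0.199). IBSP, the bone sialoprotein that seeds crystals, had 3, 0 and 1 reads with GW0742 and 0 reads in each DMSO library. A count of 0 allows up to 3 reads per library, or between 0.177 and 0.228 CPM, so no fold is given, and a difference was not detectable at this depth. These limits cover counting error only.

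On the side of pyrophosphate, ENPP1, which makes it from ATP, was at 9.06, 9.53 and 9.25 RPKM with GW0742 and at 7.69, 8.80 and 7.59 RPKM with DMSO. The GW0742 values lay close together and just above the DMSO values. The means were 28.8 ± 0.283 CPM with GW0742 and 25.4 ± 2.43 CPM with DMSO (log2 0.19 ± 0.09, edgeR adjusted p = 0.342). ANKH, the membrane protein through which ATP and pyrophosphate leave the cell, was at 2.36, 4.09 and 2.45 RPKM with GW0742 and at 2.31, 2.96 and 3.01 RPKM with DMSO. GW0742 replicate 2 was the highest and the groups overlapped (log2 0.08 ± 0.24, edgeR adjusted p = 0.897). The sign of that value turned without GW0742 replicate 2 (log2 -0.21) and without DMSO replicate 1 (log2 -0.04).

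On the side of phosphate, ALPL, the tissue-nonspecific alkaline phosphatase that cleaves pyrophosphate, was low in every library. It was at 1.67, 0.828 and 1.07 RPKM with GW0742 and at 1.33, 1.60 and 1.03 RPKM with DMSO, from 21 to 36 reads. The groups overlapped (log2 -0.15 ± 0.32, edgeR adjusted p = 0.851), and the sign turned without GW0742 replicate 2 (log2 0.07) or DMSO replicate 2 (log2 0.0094). PHOSPHO1, the vesicle phosphatase, had 4, 7 and 6 reads with GW0742 and 8, 4 and 5 reads with DMSO, too few to pass the filter on low counts. SLC20A2, a sodium-driven phosphate carrier, is split over 2 models. ENSSSCG00000007027 was at 3.19, 3.07 and 3.31 RPKM with GW0742 and at 3.67, 3.34 and 4.56 RPKM with DMSO, with DMSO replicate 3 the highest (log2 -0.31 ± 0.17, edgeR adjusted p = 0.401). ENSSSCG00000026968, found by its protein name, was at 3.20, 3.10 and 2.96 RPKM with GW0742 and at 3.38, 3.46 and 3.00 RPKM with DMSO (log2 -0.11 ± 0.12, edgeR adjusted p = 0.666). Reads of the 2 models could have been divided between them. Their summed reads gave a log2 fold change of -0.18 ± 0.09 (edgeR adjusted p = 0.353).

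In RPKM the order of the members was SPP1, MGP, GGCX, ENPP1, the pair of SLC20A2 models with ANKH, ALPL, PHOSPHO1 and IBSP, in both groups. Neighbours in that order whose libraries overlapped were both SLC20A2 models and ANKH in both groups, and MGP with GGCX in the DMSO libraries. Otherwise no library of a member reached the next member's range.

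Counts of 82 genes in 5 lists show what surrounded these members: vitamin K cycle and Gla proteins, phosphate and pyrophosphate, secreted mineral-binding matrix proteins, osteoblast factors with the BMP pathway to which MGP binds, and matrix vesicle and calcium handling. Of the 82, 72 were found and 58 tested. Outside the 10 members 51 were tested, of which 0 passed in edgeR in either direction, 12 had an unadjusted p under 0.05 (23.5%, against 16.8% of all models), and 31 had a log2 fold change above 0. DESeq2 called 1 higher and 3 lower, 7.84% of the 51, against 3.12% of all models, and limma called 0. Groups did not overlap in 16 of the 51 (31.4%, against 23.4%). The median log2 fold change of the 51 was 0.07, beside -0.0015 over all tested models.

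**Figure D2:**
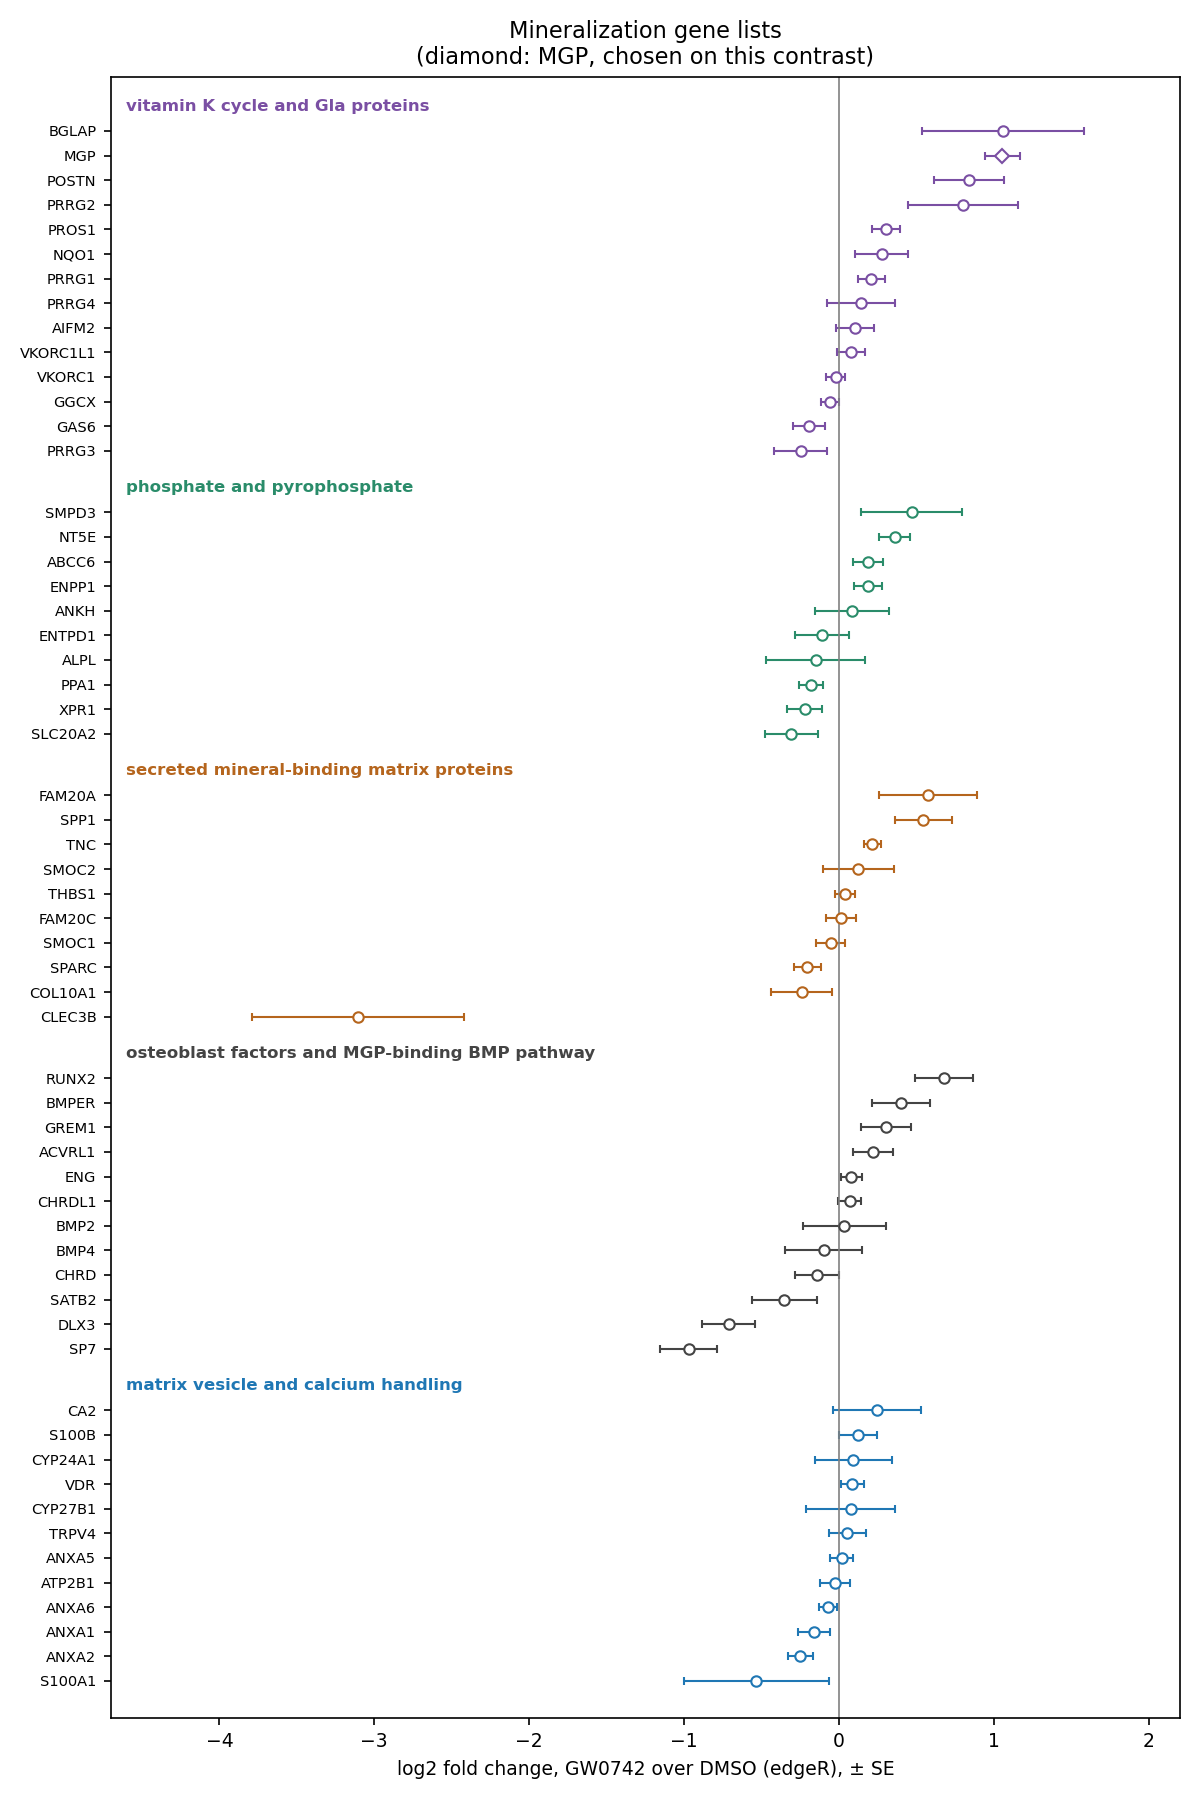
Log2 fold change of GW0742 over DMSO ± SE (edgeR) for the 58 tested genes of the 5 lists, with MGP as a diamond because it was chosen on this contrast. MGP lies at 1.06 ± 0.12, and CLEC3B lies farthest to the left, at -3.10 ± 0.69. None of the circles had an edgeR adjusted p under 0.05.

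Among vitamin K cycle genes and Gla proteins 12 were tested besides MGP and GGCX. None was called by edgeR or DESeq2, 3 had an unadjusted p under 0.05 (against 16.8% of all models), and the median log2 fold change was 0.18. BGLAP, osteocalcin, the Gla protein of bone, had the highest value (log2 1.06 ± 0.52, edgeR adjusted p = 0.353), but from 5, 17 and 23 reads with GW0742 and 9, 9 and 4 reads with DMSO, which overlap. PRRG3, a membrane protein with a Gla domain, had the lowest (log2 -0.25 ± 0.17, edgeR adjusted p = 0.493). PROS1 and GAS6 are secreted Gla proteins that activate TAM receptor kinases. PROS1 was at 29.0 ± 1.46 CPM with GW0742 and 23.5 ± 2.04 CPM with DMSO (edgeR adjusted p = 0.167), and its groups did not overlap. GAS6 was at 65.8 ± 7.37 CPM with GW0742 and 75.2 ± 7.21 CPM with DMSO (edgeR adjusted p = 0.376), and its groups overlapped.

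Of 6 further phosphate and pyrophosphate genes none was called by edgeR or DESeq2, and 2 had an unadjusted p under 0.05 (against 16.8% of all models). SMPD3, a sphingomyelinase needed for bone mineral in mice, had the highest value (log2 0.47 ± 0.33, edgeR adjusted p = 0.509). It had 9, 18 and 10 reads with GW0742 and 9, 7 and 12 reads with DMSO, which overlap, and without GW0742 replicate 2 its log2 value was 0.17, below the 0.23 of NT5E. XPR1, a phosphate exporter, had the lowest value of the 6 (log2 -0.22 ± 0.12, edgeR adjusted p = 0.375), and SLC20A2 the lowest of the whole list. NT5E, which makes adenosine from AMP and whose loss in people calcifies arteries, was at 53.1, 68.0 and 54.3 CPM with GW0742 and at 46.4, 43.9 and 46.5 CPM with DMSO (log2 0.36 ± 0.10, edgeR adjusted p = 0.145). Groups did not overlap in 2 higher genes (NT5E and ABCC6) and 2 lower genes (XPR1 and PPA1), 66.7% of the 6 against 23.4% of all models. PPA1 was at 65.0 ± 5.61 CPM with GW0742 and 73.6 ± 2.18 CPM with DMSO (log2 -0.18 ± 0.08, edgeR adjusted p = 0.275). ABCC6, a transporter needed for ATP release from liver, was at 19.4 ± 1.04 CPM with GW0742 and 17.1 ± 0.958 CPM with DMSO (edgeR adjusted p = 0.365).

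Secreted mineral-binding matrix proteins had 9 tested members besides SPP1. EdgeR called none, and 3 had an unadjusted p under 0.05 (against 16.8% of all models). DESeq2 called 1 higher and 1 lower (22.2%, against 3.12% of all models). CLEC3B (tetranectin), a lectin of plasma and of bone matrix, had the lowest value of all lists. It had 2, 4 and 11 reads with GW0742 and 55, 14 and 93 reads with DMSO. No GW0742 library reached a DMSO library, but the DMSO libraries differed widely among themselves, at 3.26, 1.05 and 5.58 CPM, against 0.153, 0.249 and 0.719 CPM with GW0742. The log2 fold change was -3.10 ± 0.69 (edgeR adjusted p = 0.0978, and DESeq2 adjusted p = 0.000813), and -1.45 in limma on log2(RPKM + 1), which compresses low values. It was -3.97 without GW0742 replicate 3 and -2.50 without DMSO replicate 3. TNC (tenascin-C), an abundant matrix glycoprotein, was at 3275, 3489 and 3232 CPM with GW0742 and at 2881, 2878 and 2854 CPM with DMSO, which did not overlap (log2 0.21 ± 0.06, edgeR adjusted p = 0.127, and DESeq2 adjusted p = 0.00758). FAM20A, the pseudokinase partner of the casein-type kinase FAM20C, had the highest value (log2 0.58 ± 0.32, edgeR adjusted p = 0.398). SPARC (osteonectin), a collagen- and calcium-binding protein, was at 1750 ± 162 CPM with GW0742 and 2016 ± 163 CPM with DMSO (edgeR adjusted p = 0.283).

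Of 12 osteoblast and BMP pathway genes, edgeR called none, and 3 had an unadjusted p under 0.05 (against 16.8% of all models). DESeq2 called 2 lower (16.7%, against 3.12% of all models). RUNX2, which sets osteoblast and hypertrophic chondrocyte fate, and SP7 (osterix), which acts after it in osteoblasts, lay at opposite ends of the list. RUNX2 was at 5.05, 6.11 and 6.86 CPM with GW0742 and at 3.32, 3.83 and 4.14 CPM with DMSO (log2 0.68 ± 0.19, edgeR adjusted p = 0.139). SP7 was at 3.83, 2.81 and 3.99 CPM with GW0742 and at 7.24, 6.98 and 6.54 CPM with DMSO (log2 -0.97 ± 0.18, edgeR adjusted p = 0.0756, and DESeq2 adjusted p = 0.0135). Neither gene's groups overlapped. DLX3, a homeobox factor of teeth, hair and bone, was at 7.50, 9.66 and 8.30 CPM with GW0742 and at 16.5, 11.1 and 14.1 CPM with DMSO (log2 -0.71 ± 0.17, edgeR adjusted p = 0.111, and DESeq2 adjusted p = 0.0263). ACVRL1, a BMP receptor of endothelium, was at 19.9 ± 1.47 CPM with GW0742 and 17.0 ± 2.57 CPM with DMSO (edgeR adjusted p = 0.419). GREM1, a secreted BMP antagonist, was at 97.2 ± 20.8 CPM with GW0742 and 78.7 ± 13.0 CPM with DMSO (edgeR adjusted p = 0.393).

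**Figure D3:**
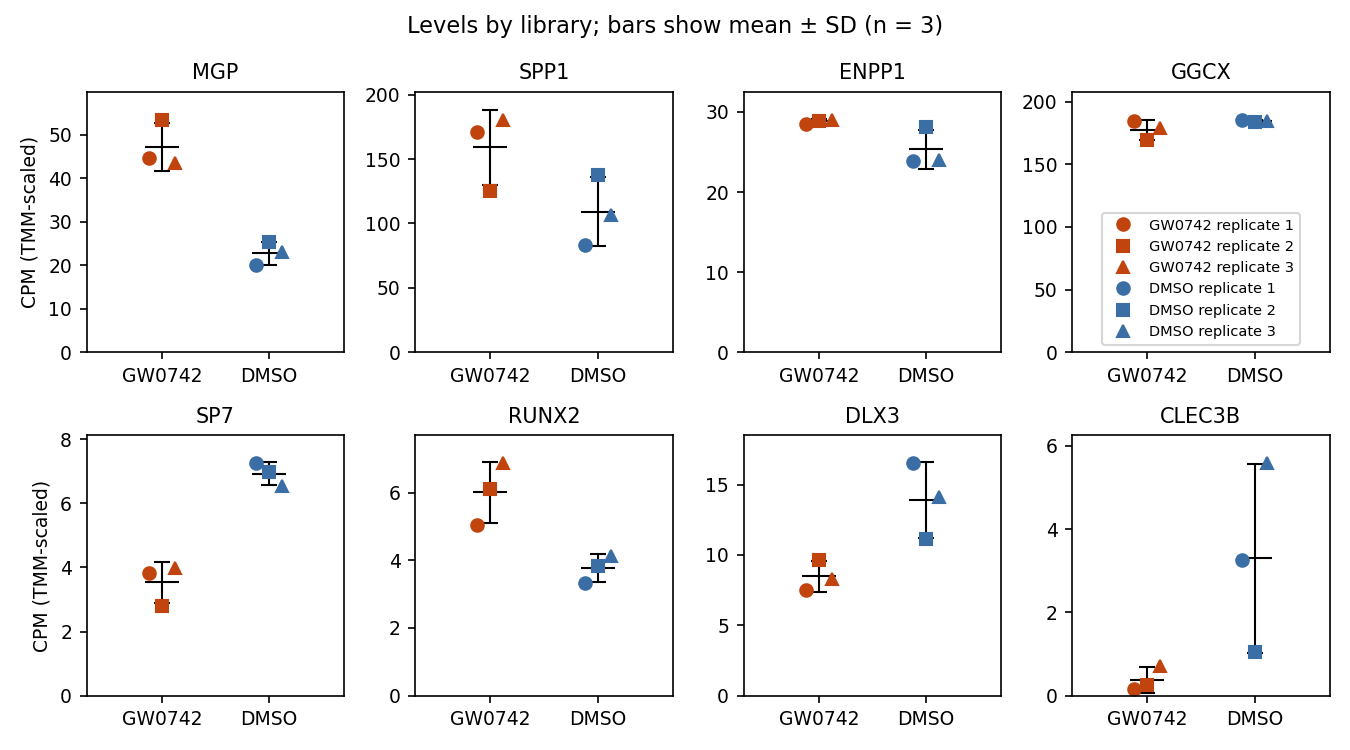
CPM of 4 members and of 4 list genes in each library, with black bars for mean ± SD (n = 3) and axes from 0. MGP, RUNX2 and, by a small margin, ENPP1 lie higher in all GW0742 libraries than in any DMSO library. SP7, DLX3 and CLEC3B lie lower in all of them, while SPP1 and GGCX overlap.

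Of 12 tested matrix vesicle and calcium genes, none was called by edgeR or DESeq2, and 1 had an unadjusted p under 0.05 (against 16.8% of all models). In 1 (8.33%, against 23.4% of all models) the groups did not overlap. That gene, ANXA2, a calcium-dependent membrane-binding annexin, was at 2271 ± 221 CPM with GW0742 and 2698 ± 149 CPM with DMSO (log2 -0.25 ± 0.08, edgeR adjusted p = 0.187). ANXA5, the annexin most used to mark matrix vesicles, was at 654 ± 59.2 CPM with GW0742 and 647 ± 7.42 CPM with DMSO (edgeR adjusted p = 0.933), and its sign turned without GW0742 replicate 1. CA2, a carbonic anhydrase, had the highest value (log2 0.24 ± 0.28, edgeR adjusted p = 0.715). It had 11, 19 and 12 reads with GW0742 and 13, 12 and 12 reads with DMSO, which overlap. S100A1, a calcium-binding protein of chondrocytes and muscle, had the lowest (log2 -0.53 ± 0.47, edgeR adjusted p = 0.605). DMSO replicate 2 stood apart in S100A1, at 69 reads, and without it the log2 value was 0.19.

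Cell type markers were read as levels in bulk RNA, which do not by themselves show which cells the cultures held. COL2A1, the collagen of cartilage, was at 112, 106 and 104 RPKM with GW0742 and at 109, 119 and 114 RPKM with DMSO, while COL1A2, a collagen of fibroblasts, was between 6099 and 6697 RPKM with GW0742 and between 6894 and 7447 RPKM with DMSO. The share of differentiated chondrocytes was not measured. In these bulk samples a smaller share of a cell type and less RNA per cell cannot be told apart. Of 7 osteoblast and osteocyte markers 5 were found. Their summed level was 3.91 to 6.33 RPKM with GW0742 and 5.40 to 6.53 RPKM with DMSO, and IBSP and PHEX had at most 10 reads in every library. Of 9 osteoclast and macrophage markers, ACP5, CALCR and DCSTAMP had at most 10 reads in every library. The sum of that list, 120 to 138 RPKM with GW0742 and 101 to 102 RPKM with DMSO, was mostly CTSK, a protease that fibroblasts also make. Of 5 adipocyte markers 2 were found, both with at most 10 reads in every library.

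Vessel walls also make MGP, so endothelial and smooth muscle markers are set beside it. Which cells made these transcripts was not tested. Of 8 endothelial markers 6 were found, and all 6 had log2 fold changes above 0, with a median of 1.36. KDR, TIE1 and ESAM had the largest values (log2 1.55 to 1.64) but few reads, 6 to 26 per DMSO library and 7 to 127 per GW0742 library. TIE1 groups overlapped. CLDN5 and EGFL7, with more reads, had log2 fold changes of 0.43 and 0.39. None passed in edgeR, 6 had an unadjusted p under 0.05 (against 16.8% of all models), and DESeq2 called 2 higher (against 3.12% of all models). Their summed level was 117, 130.2 and 103 RPKM in GW0742 replicates 1, 2 and 3, and 64.1, 96.5 and 81.7 RPKM in DMSO replicates 1, 2 and 3. Most of the sum was CLDN5, at 94.4, 98.2 and 89.5 RPKM with GW0742 and 52.0, 82.0 and 72.0 RPKM with DMSO. PECAM1, a junction protein of endothelium, was at 13.0, 20.4 and 6.35 RPKM with GW0742 and at 6.73, 8.25 and 4.66 RPKM with DMSO, so that GW0742 replicate 3 lay among the DMSO libraries in RPKM. In CPM its groups did not overlap, with 15.6 in the lowest GW0742 library and 12.2 in the highest DMSO library. With all libraries PECAM1 did not pass in edgeR (log2 1.16 ± 0.26, edgeR adjusted p = 0.0977). Its log2 value ran from 0.90 to 1.43 over left-out libraries. In edgeR it passed only without GW0742 replicate 3 (log2 1.43, edgeR adjusted p = 0.00983).

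Markers of smooth muscle went the other way. Of 7, 6 were found, with a median log2 fold change of -0.29 and 5 values below 0. None passed in edgeR, and 4 had an unadjusted p under 0.05 (against 16.8% of all models). DESeq2 called 3 lower (50.0%, against 3.12% of all models). Groups did not overlap in 4, all lower (66.7%, against 23.4% of all models). The summed level of the 6 was 4178 to 5191 RPKM with GW0742 and 5299 to 5679 RPKM with DMSO. Most of it was TAGLN and ACTA2, while MYH11 averaged 1.72 RPKM with GW0742 and 1.58 RPKM with DMSO. Whether vessel wall cells made these transcripts was not tested. MYH11, the 1 marker with a value above 0, was at 4.42 ± 0.39 CPM with GW0742 and 4.14 ± 0.39 CPM with DMSO. Its groups overlapped (log2 0.09 ± 0.17, edgeR adjusted p = 0.832). Fibroblast markers, 7 found of 8, summed to between 14174 and 15033 RPKM with GW0742 and between 15035 and 15512 RPKM with DMSO, mostly COL1A2 and VIM, so that the groups nearly met. Of the 7, 3 had a log2 fold change above 0 and 4 below, with a median of -0.0080. In edgeR 0 of the 7 passed, and 5 had an unadjusted p under 0.05 (against 16.8% of all models). DESeq2 called 1 higher and 1 lower (28.6%, against 3.12% of all models). LUM, a collagen-binding proteoglycan, was the higher one, at 59.1 ± 9.07 CPM with GW0742 and 37.7 ± 8.28 CPM with DMSO (log2 0.65 ± 0.16, edgeR adjusted p = 0.117, and DESeq2 adjusted p = 0.00335). THY1, a membrane glycoprotein, was the lower one, at 585 ± 20.5 CPM with GW0742 and 712 ± 22.4 CPM with DMSO (log2 -0.28 ± 0.06, edgeR adjusted p = 0.0788, and DESeq2 adjusted p = 0.000519). Chondrocyte markers, 9 found of 9, summed to between 229 and 248 RPKM with GW0742 and between 271 and 283 RPKM with DMSO, with 8 of 9 log2 fold changes below 0 and a median of -0.13. In edgeR 1 of the 9 was called lower (against 0.0778% of all models). It was ACAN (aggrecan), at 576 ± 16.4 CPM with GW0742 and 816 ± 34.1 CPM with DMSO (log2 -0.50 ± 0.06, edgeR adjusted p = 0.0185). The ACAN call was lost in 6 of 12 alternatives, with the log2 value between -0.53 and -0.47 over all 12. Among the 6 were the fits without GW0742 replicate 1, DMSO replicate 1 or DMSO replicate 3 (edgeR adjusted p of 0.105, 0.101 and 0.0815). Another was the fit with the replicate number as a block (edgeR adjusted p = 0.0990). The part of these cell types in the difference of MGP was not tested.

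**Figure D4:**
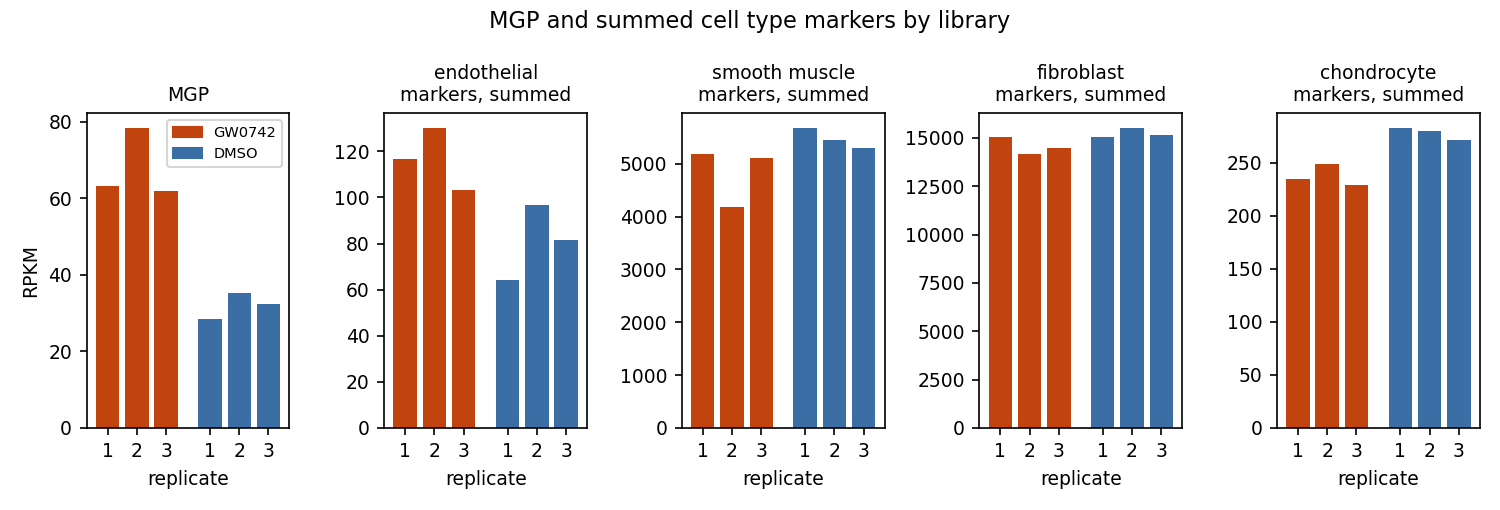
RPKM of MGP and summed RPKM of 4 marker lists in each library, as bars from 0, with GW0742 left of DMSO. MGP and the endothelial sum are higher in all GW0742 libraries, while the smooth muscle and chondrocyte sums are lower in all of them and the fibroblast sums nearly meet, at 15033 RPKM in the highest GW0742 library and 15035 RPKM in the lowest DMSO library.

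The models whose profile was most like that of MGP were found by Pearson's r of log2(CPM + 1) over the 6 libraries, among 8469 tested models with a symbol and a mean of at least 1 CPM. The r values describe these libraries, which share the split into groups, and carry no test. The 5 most like MGP were PRDX6 (r = 0.992), VCAM1 (r = 0.992), CPT1A (r = 0.989), GEM (r = 0.988) and EXOSC7 (r = 0.988). PRDX6, a peroxiredoxin, was at 195, 200.1 and 190 CPM with GW0742 and at 163, 167 and 167 CPM with DMSO. VCAM1, a leukocyte adhesion molecule, was at 10.4, 11.4 and 9.08 CPM with GW0742 and at 4.57, 5.26 and 5.22 CPM with DMSO. In both genes GW0742 replicate 2 was the highest and DMSO replicate 1 the lowest, as in MGP. CPT1A, the mitochondrial fatty acid gate and a PPAR target, was at 136 ± 8.45 CPM with GW0742 and 35.3 ± 7.68 CPM with DMSO. GEM, a small GTP-binding protein, averaged 23.1 ± 3.37 CPM with GW0742 and 11.5 ± 1.07 CPM with DMSO. EXOSC7, a subunit of the RNA exosome, averaged 66.1 ± 1.07 CPM with GW0742 and 55.5 ± 1.30 CPM with DMSO.

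The 5 models with the most opposite profile were ARHGEF37 (r = -0.998), SMAD9 (r = -0.997), BBS7 (r = -0.995), MAGED1 (r = -0.994) and ADRA1B (r = -0.993). SMAD9, a transducer of BMP signals, was at 48.5, 46.9 and 49.0 CPM with GW0742 and at 63.1, 58.0 and 59.7 CPM with DMSO. In all, 79 models had an r above 0.95, and 95 had an r below the same value with a minus sign.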

How the data were processed

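RNA of 6 libraries was captured on oligo(dT) beads and read on an Ion Proton instrument, per the labels' protocols. For each gene model the authors deposited an estimated count and an RPKM, per the file headers. Their build was Sscrofa 10.2, per the submitters' processing notes. Aligner, counter and annotation: not given in the sources used here. No strand-marking step is named either, so overlapping genes cannot be separated.

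Symbols came from a gene name table (11147 models). Listed genes without one were matched by protein name where a single unnamed model carried it (20 models). No coordinates are printed, since no reference of that build was at hand.

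Counts were rounded, filtered with filterByExpr (minimum count 10), and TMM-normalized before edgeR 4.0.16 (quasi-likelihood test, R 4.3.3). Adjusted p-values are Benjamini-Hochberg, two-sided, over all tested models, with a threshold of 0.05. SE is the log2 fold change over the root of F. CPM uses TMM-scaled library sizes, and statements on overlap in counts over models use CPM. RPKM is as deposited, and how it was scaled in each library is not listed. EXOSC7 was at 66.6 and 66.8 CPM in GW0742 replicates 1 and 2, but at 24.6 and 31.4 RPKM. For some models RPKM and CPM therefore rank libraries differently. No pair of libraries agreed within sampling noise. Alternatives were other size factors, DESeq2 1.42.0, no filter, leaving out each library, a block, and limma 3.58.1 on log2(RPKM + 1) and log2(RPKM + 0.1). The edgeR test was run first on simulated counts with known changes. Summing both SLC20A2 models was added after seeing the data.

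Members and lists were chosen with earlier results of these data known. The rule names all members, list genes past the threshold, the highest and lowest of each list, the 5 models most and least like MGP, and PPARD, ANGPTL4 and PDK4. Other named genes were chosen after their values were seen.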

Additional observations from a re-analysis of the deposited data

How the results depend on the processing

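MGP had a log2 fold change of 0.96 to 1.13 over left-out libraries. Its direction was the same in all 12 alternatives, which supports nothing. MGP was chosen on this contrast, and every GW0742 library lay above every DMSO library, so leaving out 1 could not turn it. None of the other members was called in any of their alternatives. Genes higher and lower numbered 26 and 11 in edgeR, 13 and 3 without a filter, and 207 and 234 in DESeq2. Limma with a pseudocount of 1 called 19 higher and 3 lower, and with 0.1 it called 17 higher and 4 lower. Leaving out a library gave 6 to 54 higher and 0 to 47 lower. The cause of these shifts was not tested. Outside MGP, edgeR called 0 genes of the 5 lists. With MGP, which was chosen on this contrast and so supports nothing, DESeq2 called 2 higher and 3 lower, and leaving out a library gave 0 to 1 higher in edgeR. With the replicate number as a block edgeR called 10 genes higher and 0 lower, and the log2 fold change of MGP was 1.05. Same-numbered libraries had deviations correlated at -0.10 to 0.0054, and 0 of 3 GW0742 libraries correlated best with its own number. Correlations this weak cannot tell whether the numbers pair the libraries. VKORC1 changed sign in limma (0.0045 and 0.0045). Over left-out libraries sign changes occurred in VKORC1 (-0.055 to 0.0094), ANKH (-0.21 to 0.21), ALPL (-0.47 to 0.073), S100A1 (-0.86 to 0.19) and ANXA5 (-0.058 to 0.060). None of these was called. Over 50 named models, 545 values stayed on their side of the threshold, 34 lost the call, 11 gained it and 10 changed sign. Depth limits IBSP, PHOSPHO1, BGLAP, SMPD3, CA2 and ALPL, which rest on few reads. It also limits CLEC3B with GW0742 (2, 4 and 11 reads) and PDK4 with DMSO (4, 5 and 4 reads).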
